A study of Mus musculus with 10 samples.

Results

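Genes known for their expression in the atria were examined in RNA of cardiomyocytes isolated 4 days after myocardial infarction (MI). The 10 genes were Sbk2, Sbk3, Myl4, Myl7, Sln, Bmp10, Dkk3, Nr2f1, Nr2f2 and Stard10, taken by symbol from the 51789 genes of the deposited counts. They were chosen with the difference between the groups already known, so their levels in the groups are given as a description, with no test. The 10 libraries came from 5 NLC-MI mice (non-transgenic littermate controls) and 5 TgGRK5-MI mice, which carry a transgene for the kinase GRK5 that is expressed in cardiomyocytes. All mice had undergone permanent ligation of the left coronary artery, so that no library comes from an uninjured heart. Mice of the study were young adults of both sexes, and the labels give neither age nor sex of a library. The sources used here name no promoter for the transgene and do not say whether the atria were removed before the cells were isolated.

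Atrial and ventricular cardiomyocytes share most of the contractile machinery but use different forms of some of its parts. In the atria, MYL7 and MYL4 take the places that the regulatory light chain MYL2 and the essential light chain MYL3 hold in the ventricle, and the small membrane protein sarcolipin (Sln) joins phospholamban (Pln) as an inhibitor of the calcium pump SERCA. The nuclear receptors COUP-TFI (Nr2f1) and COUP-TFII (Nr2f2) hold part of this program in place, and BMP10 is a growth factor secreted by atrial muscle. Several of these genes are also used outside atrial muscle. COUP-TFII is a factor of venous and lymphatic endothelium, and DKK3, a secreted member of the Dickkopf family, is made by mesenchymal cells.

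The libraries held from 7968779 to 23381527 counts, and levels are given in CPM, the count of a gene relative to the TMM-scaled size of its library. The floor of detection, taken as 3 counts, lay between 0.121 and 0.393 CPM. The transgene was visible in the counts, since mean Grk5 was 60.4 ± 9.50 CPM without the transgene and 1222 ± 472 CPM with it (SD, n = 5 each). The markers of all cardiomyocytes summed to between 52895 and 130778 CPM in NLC-MI and between 54298 and 98749 CPM in TgGRK5-MI, and all 14 passed the filter on low counts. Fibroblast markers summed to between 4031 and 24098 CPM in NLC-MI and between 4198 and 24766 CPM in TgGRK5-MI, so RNA of other cells was present in every library. The 3 libraries of lowest depth (NLC-MI replicate 3 and TgGRK5-MI replicates 3 and 4) stood apart from the others on the first principal component of all genes, which held 43.9% of the variance, and NLC-MI replicate 5 stood apart on the second (23.2%). Where leaving out these libraries changed a call or a sign, or moved the log2 fold change of a member by over 1.5 times, this is said beside it.

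Every one of the 10 genes had a lower mean CPM in TgGRK5-MI than in NLC-MI. Of the 10, 9 passed the filter on low counts and were fitted, and Bmp10 was not. The fitted log2 fold changes of TgGRK5-MI against NLC-MI (differences, below 0 where TgGRK5-MI was lower) ran from -1.63 for Sbk2 to -0.09 for Dkk3, with a median of -0.70 and a mean of -0.65, where the median of all 15232 genes fitted was 0.001. All 9 were below 0, as were 49.8% of all genes fitted. They fell into 5 genes with a log2 fold change of -0.70 or less (Sbk2, Myl7, Sbk3, Myl4 and Sln) and 4 genes between -0.16 and -0.09 (Nr2f1, Nr2f2, Stard10 and Dkk3). NLC-MI replicate 5 held much of this difference, since the mean was -0.40 without it, and without the 3 libraries of lowest depth it was -0.60. The groups did not overlap for 1 member, Sbk2, beside 0.420% of all genes fitted that lay lower in every TgGRK5-MI library. Since the members were picked from this contrast, nothing is read from this count. In bulk RNA of isolated cells, fewer cells of a kind and less RNA per cell cannot be told apart.

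**Figure D1:**
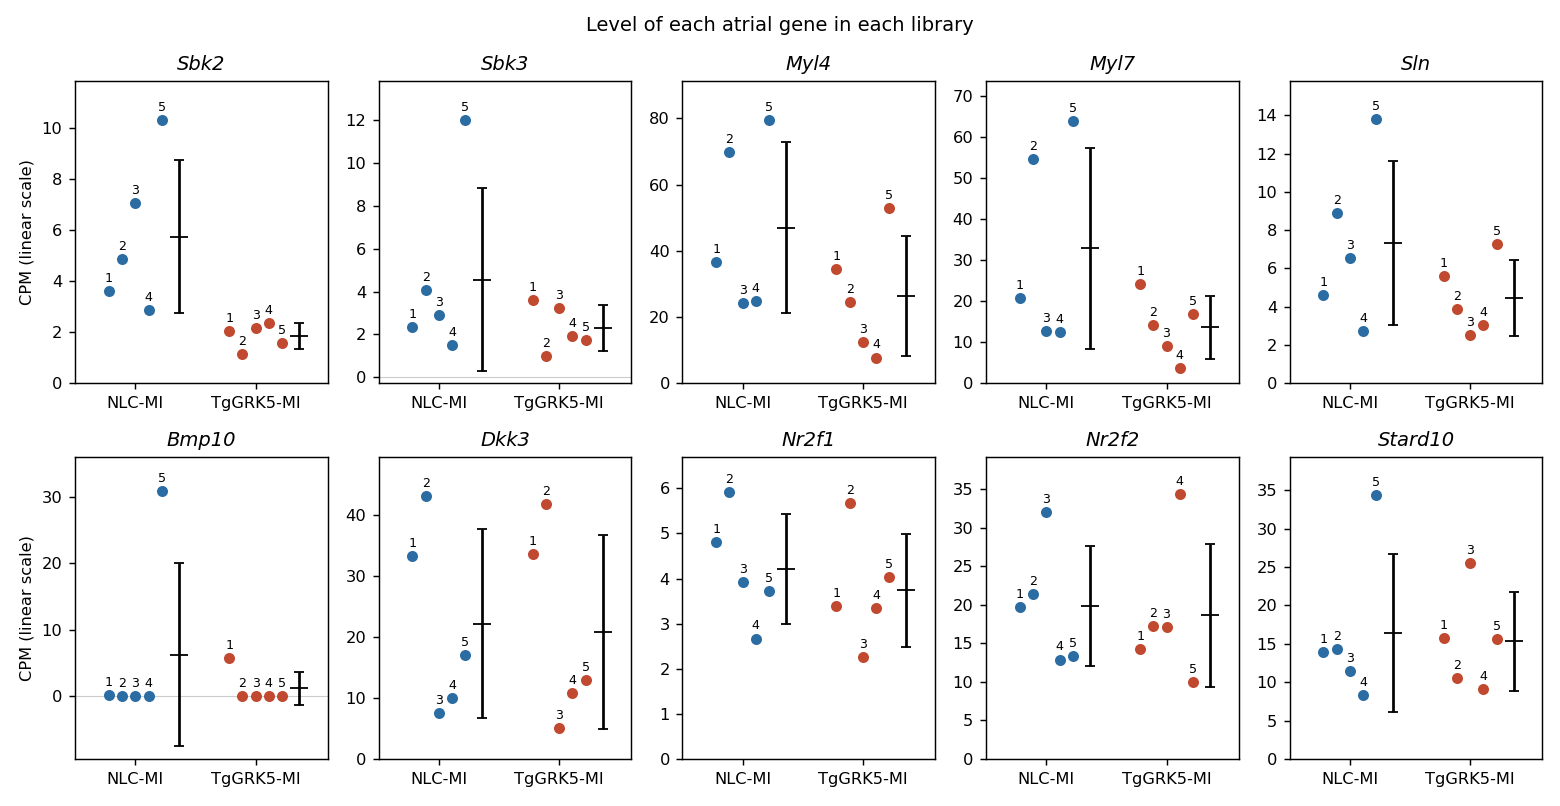
Level of each of the 10 genes in CPM (linear axis) in the 5 NLC-MI libraries (blue) and the 5 TgGRK5-MI libraries (red), with the replicate number at each point and the mean ± SD in black. Sbk2 is the gene whose groups do not overlap, and Bmp10 is near 0 in 8 of the 10 libraries.

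Per kilobase of exon, the scale on which genes can be compared, Myl7 had the highest level of the members, at 55.8 ± 41.6 CPM per kb in NLC-MI and 23.0 ± 13.2 CPM per kb in TgGRK5-MI (SD, n = 5 each). In NLC-MI it was followed by Myl4 (10.1 ± 5.58), Stard10 (6.80 ± 4.27), Dkk3 (6.62 ± 4.60), Sln (5.55 ± 3.26), Nr2f2 (2.31 ± 0.900), Sbk2 (1.82 ± 0.952), Sbk3 (1.43 ± 1.33), Bmp10 (1.38 ± 3.08) and Nr2f1 (0.826 ± 0.239), all in CPM per kb. Of the neighbours in this order, the range of Myl7 over the 5 libraries lay above that of Myl4, and the ranges of all the others overlapped. In TgGRK5-MI the order after Myl7 was Stard10 (6.35 ± 2.67), Dkk3 (6.21 ± 4.75), Myl4 (5.69 ± 3.91), Sln (3.39 ± 1.5), Nr2f2 (2.16 ± 1.08), Nr2f1 (0.734 ± 0.246), Sbk3 (0.714 ± 0.340), Sbk2 (0.590 ± 0.160) and Bmp10 (0.251 ± 0.561) CPM per kb. There only the range of Nr2f2 lay fully above that of its next neighbour, Nr2f1. Sbk2 thus ranked 7 of 10 in NLC-MI and 9 of 10 in TgGRK5-MI, and Myl4 ranked 2 and 4.

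The atrial light chains had the highest mean CPM of the members in NLC-MI. In TgGRK5-MI Myl4 was still the highest, but Myl7 was below Dkk3, Nr2f2 and Stard10. Myl7 (ENSMUSG00000020469, chromosome 11 from 5896637 to 5898782, minus strand, GRCm38) encodes the atrial regulatory light chain. In NLC-MI replicates 1 to 5 it was at 20.7, 54.7, 12.8, 12.4 and 64.0 CPM, and in TgGRK5-MI replicates 1 to 5 at 24.2, 14.3, 9.04, 3.66 and 16.8 CPM. Replicates 2 and 5 of NLC-MI were far above all other libraries, and the other 3 NLC-MI libraries lay within the range of TgGRK5-MI. The means were 32.9 ± 24.6 and 13.6 ± 7.77 CPM, and the log2 fold change was -1.27 (SE 0.55). With each library left out in turn it ran from -1.59 to -0.89, and without the 3 libraries of lowest depth it was -1.05.

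Myl4 (ENSMUSG00000061086, chromosome 11 from 104550663 to 104595753, plus strand) encodes the essential light chain of the atria and of the fetal heart. It was at 36.5, 69.8, 24.3, 24.9 and 79.4 CPM in NLC-MI replicates 1 to 5 and at 34.6, 24.5, 12.3, 7.76 and 52.8 CPM in TgGRK5-MI replicates 1 to 5. The same NLC-MI libraries, 2 and 5, were the highest, and TgGRK5-MI replicates 3 and 4, which are of low depth, were the lowest. The means were 47.0 ± 25.9 and 26.4 ± 18.1 CPM (SD, n = 5 each), and the log2 fold change was -0.83 (SE 0.50), with a range of -1.24 to -0.56 over single libraries left out. Without the 3 libraries of lowest depth it was -0.50.

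Sln (ENSMUSG00000042045, chromosome 9 from 53850164 to 53854560, plus strand) followed the light chains at a lower level. Its values were 4.63, 8.91, 6.54, 2.72 and 13.8 CPM in NLC-MI replicates 1 to 5 and 5.59, 3.88, 2.52, 3.02 and 7.30 CPM in TgGRK5-MI replicates 1 to 5. The groups overlapped, with NLC-MI replicates 2 and 5 again highest. The means were 7.32 ± 4.29 and 4.46 ± 1.97 CPM (SD, n = 5 each), with a log2 fold change of -0.70 (SE 0.42), which was -0.34 without NLC-MI replicate 5 and -0.43 without the 3 libraries of lowest depth.

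The atrial light chains were a small fraction of their ventricular counterparts in these cells. Per 100 units of Myl2, both per kilobase, Myl7 stood at 1.55, 3.73, 0.823, 1.0 and 1.7 in NLC-MI replicates 1 to 5 and at 1.01, 0.844, 0.249, 0.220 and 0.659 in TgGRK5-MI replicates 1 to 5. The ratio overlapped between the groups through NLC-MI replicates 3 and 4, with means of 1.76 ± 1.16 and 0.596 ± 0.353 (SD, n = 5 each). Myl4 stood at 0.485 ± 0.189 per 100 units of Myl3 in NLC-MI and 0.295 ± 0.163 in TgGRK5-MI. Sln stood at 0.359 ± 0.198 per 100 units of Pln in NLC-MI and 0.254 ± 0.144 in TgGRK5-MI. Of the counterparts, Myl2 had a log2 fold change of 0.35 (SE 0.43), Myl3 of -0.16 (SE 0.38) and Pln of -0.14 (SE 0.39), none with an unadjusted p under 0.05 in edgeR. Without NLC-MI replicate 5, however, Myl2 passed that threshold. Of 14 other light chain and light chain kinase genes, Myl2 and Myl3 included, 13 were fitted. With all libraries none of these passed that threshold, and the median log2 fold change was 0.10.

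**Figure D2:**
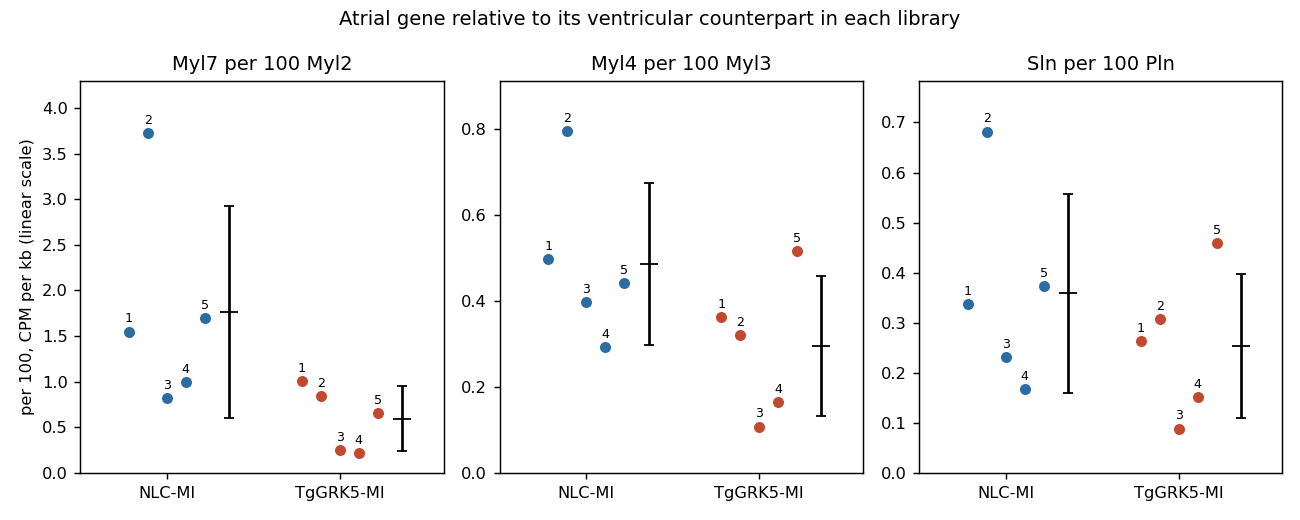
Level per kilobase of Myl7 per 100 units of Myl2, Myl4 per 100 units of Myl3, and Sln per 100 units of Pln in each library (linear axes from 0), with replicate numbers and the mean ± SD in black. NLC-MI replicate 2 is highest in all 3 panels, and TgGRK5-MI replicates 3 and 4 are the lowest in the left panel.

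The promoter windows of the light chain genes are shown because their transcripts varied together from mouse to mouse, as described below. Each window holds 250 bases before and 50 bases after the start of the gene in RefSeq (GRCm38.p6), 5′ to 3′ on the strand of the gene, and capitals mark the letters GATAA, the core of a site for GATA factors, wherever they occur on either strand. Myl7 lies in chr11:5898733-5899032 (minus strand) and Myl4 in chr11:104550413-104550712 (plus strand).
Myl7: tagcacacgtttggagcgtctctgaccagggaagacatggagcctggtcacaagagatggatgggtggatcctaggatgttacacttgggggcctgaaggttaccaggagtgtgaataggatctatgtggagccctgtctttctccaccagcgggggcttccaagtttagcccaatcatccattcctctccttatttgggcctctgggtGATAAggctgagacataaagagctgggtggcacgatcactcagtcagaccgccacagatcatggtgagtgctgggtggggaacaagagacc
Myl4: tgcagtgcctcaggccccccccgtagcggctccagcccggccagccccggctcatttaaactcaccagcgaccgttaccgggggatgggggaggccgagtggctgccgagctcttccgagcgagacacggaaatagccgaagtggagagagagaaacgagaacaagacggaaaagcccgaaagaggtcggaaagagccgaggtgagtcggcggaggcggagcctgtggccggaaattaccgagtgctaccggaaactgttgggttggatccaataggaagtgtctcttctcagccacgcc
The Myl7 window holds GATAA at 41 bases before the start, and the Myl4 window holds none. Of the 8 members with a window in the RefSeq table (all but Sln and Dkk3), 4 had a GATAA on either strand, beside 25.4% of all 32817 windows. No window of the 8 held AGGTCA, the half-site letters of COUP-TF receptors (16.3% of all windows), or AGGTGT, the half-site letters of T-box factors (13.7%), on either strand. These matches are a description of the letters in the windows and not of binding.

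Sbk2 (ENSMUSG00000030433, chromosome 7 from 4940512 to 4964406, minus strand) and Sbk3 (ENSMUSG00000085272, chromosome 7 from 4965260 to 4971168, minus strand) encode kinases of the SH3 domain-binding family that striated muscle expresses. The genes are neighbours on the same strand with 853 bases between them, and share no exon base. Sbk2 was at 3.61, 4.86, 7.07, 2.86 and 10.3 CPM in NLC-MI replicates 1 to 5 and at 2.06, 1.13, 2.17, 2.37 and 1.56 CPM in TgGRK5-MI replicates 1 to 5. The lowest NLC-MI library lay above the highest TgGRK5-MI library. The means were 5.73 ± 3.00 and 1.86 ± 0.504 CPM (SD, n = 5 each), and the log2 fold change was -1.63 (SE 0.36), from -1.80 to -1.31 over single libraries left out and -1.76 without the 3 libraries of lowest depth. These levels rest on 22 to 157 counts per library.

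Sbk3 was at 2.33, 4.09, 2.88, 1.5 and 12 CPM in NLC-MI replicates 1 to 5 and at 3.58, 0.960, 3.22, 1.94 and 1.72 CPM in TgGRK5-MI replicates 1 to 5. Apart from NLC-MI replicate 5, the groups covered much the same range. The means were 4.56 ± 4.25 and 2.28 ± 1.09 CPM, and the log2 fold change of -1.0 (SE 0.55) became -0.25 without NLC-MI replicate 5. Of the counts of both genes together, Sbk3 held 40.4% ± 9.71 in NLC-MI and 53.3% ± 8.23 in TgGRK5-MI (SD, n = 5 each), with ranges of 28.9% to 53.8% and 45.0% to 63.5%. The related gene Sbk1, at 67.5 ± 32.0 and 56.6 ± 18.7 CPM, had a log2 fold change of -0.25 (SE 0.31, edgeR adjusted p = 1).

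The windows at the starts of these neighbours are given for the same reason as those of the light chains, Sbk2 in chr7:4964357-4964656 and Sbk3 in chr7:4970912-4971211, both on the minus strand of GRCm38.p6 with GATAA in capitals.
Sbk2: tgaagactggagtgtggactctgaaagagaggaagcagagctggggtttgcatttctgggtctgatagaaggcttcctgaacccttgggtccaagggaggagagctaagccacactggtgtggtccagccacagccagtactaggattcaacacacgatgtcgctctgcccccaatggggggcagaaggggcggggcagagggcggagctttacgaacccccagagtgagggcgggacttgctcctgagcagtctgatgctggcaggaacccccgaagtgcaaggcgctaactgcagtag
Sbk3: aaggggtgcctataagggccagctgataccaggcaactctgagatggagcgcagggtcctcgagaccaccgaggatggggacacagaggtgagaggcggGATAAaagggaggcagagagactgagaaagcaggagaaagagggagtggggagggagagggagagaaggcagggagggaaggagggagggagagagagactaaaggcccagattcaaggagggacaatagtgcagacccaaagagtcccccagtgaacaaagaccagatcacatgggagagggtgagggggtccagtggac
The Sbk3 window holds GATAA at 151 bases before the start, and the Sbk2 window holds none.

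Bmp10 (ENSMUSG00000030046, chromosome 6 from 87428994 to 87437677, plus strand) was present in 2 libraries. It had 472 counts (30.9 CPM) in NLC-MI replicate 5 and 126 counts (5.64 CPM) in TgGRK5-MI replicate 1. It had 1 count in NLC-MI replicate 1 and 0 counts in the other 7 libraries, where the floor of 3 counts allows up to 0.393 CPM. It was thus above the floor in 1 library of each group. NLC-MI replicate 5 also had the highest level of Sbk2, Sbk3, Myl4, Myl7, Sln and Stard10 of all 10 libraries, and TgGRK5-MI replicate 1 had the highest level of Sbk3 and Myl7 in its group. High levels in NLC-MI replicate 5 were not limited to atrial genes. It had the highest sums of ventricular chamber genes (32233 CPM) and of genes of all cardiomyocytes (130778 CPM) of all 10 libraries. Its sum of the other atrial genes listed below (5145 CPM) was the lowest in NLC-MI. For Myl4 and Myl7, NLC-MI replicate 2 came close to replicate 5 with 0 counts of Bmp10. The Bmp10 window (chr6:87428744-87429043, plus strand, GRCm38.p6) is shown for its pair of GATAA matches, at 218 and 32 bases before the start.
Bmp10: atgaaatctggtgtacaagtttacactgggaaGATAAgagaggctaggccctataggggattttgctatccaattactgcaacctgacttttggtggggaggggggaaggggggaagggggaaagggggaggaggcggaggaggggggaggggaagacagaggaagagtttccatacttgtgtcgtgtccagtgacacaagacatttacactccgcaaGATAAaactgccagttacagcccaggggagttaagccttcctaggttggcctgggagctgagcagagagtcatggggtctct
Without both libraries that held Bmp10, the mean log2 fold change of the 9 fitted members was -0.50, and without NLC-MI replicate 5 alone it was -0.40, against -0.65 with all libraries.

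Of 18 receptors, signal carriers and response genes of BMP9 and BMP10, 17 were fitted and 2 were lower at an unadjusted p under 0.05 in edgeR's quasi-likelihood F test over all genes, beside 2.08% of all genes. These were the type II receptor gene Acvr2b, with a log2 fold change of -0.58 (SE 0.25, edgeR adjusted p = 1), and the T-box gene Tbx20, with -0.54 (SE 0.18, edgeR adjusted p = 0.995). Acvr2b no longer passed when any of 6 of the 10 libraries was left out, NLC-MI replicate 5 among them, nor without the 3 libraries of lowest depth (-0.55, unadjusted p = 0.103), and Tbx20 passed in each of these cases. Tcap, which encodes a Z-disc protein that binds BMP10, was at 2526 CPM in NLC-MI replicate 5 and between 418.7 and 1092 CPM in the other 9 libraries.

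Dkk3 (ENSMUSG00000030772, chromosome 7 from 112116017 to 112159057, minus strand) formed 2 sets of libraries that cut across the groups. It was at 33.4, 43.2, 7.46, 10 and 17.1 CPM in NLC-MI replicates 1 to 5 and at 33.7, 41.8, 5.04, 10.8 and 13.0 CPM in TgGRK5-MI replicates 1 to 5. Replicates 1 and 2 of both groups were high and replicates 3 to 5 of both were low. The means of the groups were close, at 22.2 ± 15.5 and 20.9 ± 16.0 CPM (SD, n = 5 each), with a log2 fold change of -0.09 (SE 0.59) that ran from -0.51 to 0.29 over single libraries left out and was 0.18 without the 3 libraries of lowest depth and -0.18 without NLC-MI replicate 5. The same 4 libraries had the most fibroblast RNA. The summed fibroblast markers were at 23571, 24098, 5817, 7473 and 4031 CPM in NLC-MI replicates 1 to 5 and at 14153, 24766, 4198, 9758 and 8162 CPM in TgGRK5-MI replicates 1 to 5. Since the libraries fall into separate sets, no single correlation is given for Dkk3. It still counts in the summary over all pairs of members and in the mean profile of the members below. Of 8 other Dickkopf genes and their receptors, 4 were fitted and 1 was lower at an unadjusted p under 0.05, beside 2.08% of all genes fitted. This was Kremen1, a receptor of Dickkopf proteins, with a log2 fold change of -0.52 (SE 0.19, unadjusted p = 0.0181, edgeR adjusted p = 1). Without NLC-MI replicate 4 it was -0.41 (unadjusted p = 0.0541).

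Nr2f1 (ENSMUSG00000069171, chromosome 13 from 78188973 to 78199757, minus strand) was a low member at 4.8, 5.91, 3.93, 2.67 and 3.73 CPM in NLC-MI replicates 1 to 5 and 3.40, 5.67, 2.26, 3.34 and 4.03 CPM in TgGRK5-MI replicates 1 to 5. The groups overlapped almost fully, with means of 4.21 ± 1.22 and 3.74 ± 1.25 CPM and a log2 fold change of -0.16 (SE 0.28), which was 0.02 without the 3 libraries of lowest depth. Nr2f2 (ENSMUSG00000030551, chromosome 7 from 70351944 to 70366735, minus strand) was at 19.7, 21.4, 32.1, 12.9 and 13.4 CPM in NLC-MI replicates 1 to 5 and at 14.3, 17.3, 17.1, 34.4 and 9.99 CPM in TgGRK5-MI replicates 1 to 5. Its highest library in each group, NLC-MI replicate 3 and TgGRK5-MI replicate 4, was of low depth. The means were 19.9 ± 7.77 and 18.6 ± 9.28 CPM (SD, n = 5 each), and the log2 fold change was -0.10 (SE 0.33), which was -0.28 without the 3 libraries of lowest depth and -0.22 without NLC-MI replicate 5. On the opposite strand, Nr2f1 shares 123 exon bases with A830082K12Rik and Nr2f2 shares 643 with B130024G19Rik, genes with 170 and 183 counts over all libraries. The strand setting of the counting is not given in the sources used here, so that reads of these stretches cannot be assigned with certainty. None of 11 relatives and partners of these receptors that were fitted, among them Nr2f6, Rxra, Gata4 and Zfpm2, had an unadjusted p under 0.05.

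Stard10 (ENSMUSG00000030688, chromosome 7 from 101317086 to 101346626, plus strand) encodes a lipid transfer protein with a START domain. It was at 13.9, 14.3, 11.4, 8.30 and 34.4 CPM in NLC-MI replicates 1 to 5 and at 15.8, 10.6, 25.6, 9.16 and 15.6 CPM in TgGRK5-MI replicates 1 to 5. NLC-MI replicate 5 was highest and the groups otherwise overlapped, with means of 16.5 ± 10.3 and 15.4 ± 6.46 CPM (SD, n = 5 each). The log2 fold change was -0.10 (SE 0.38), and it was 0.35 without NLC-MI replicate 5 and -0.34 without the 3 libraries of lowest depth. Of 12 other START domain genes, Stard13 was lower at an unadjusted p under 0.05, beside 2.08% of all genes fitted. Its groups did not overlap, at 32.2 ± 1.96 and 25.1 ± 2.30 CPM (SD, n = 5 each), beside 0.420% of all genes that lay lower in this way. Its log2 fold change was -0.36 (SE 0.12, edgeR adjusted p = 1).

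The direction of the 4 members near 0 depended on the scale. Taken relative to the mean log2 level of the 14 genes of all cardiomyocytes, whose own mean log2 fold change was -0.26, the differences were 0.17 for Dkk3, 0.10 for Nr2f1, 0.17 for Nr2f2 and 0.16 for Stard10. On the same scale they were -1.37 for Sbk2, -1.01 for Myl7, -0.73 for Sbk3, -0.56 for Myl4 and -0.43 for Sln, and the mean of the 9 was -0.39.

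Whether the members rose and fell together among mice of the same group is a question that the choice of the members did not use. Each gene's log2 CPM was centred on its group mean and Pearson's r was taken over the 10 libraries for 36 pairs of members and for 198 pairs of a member with the mean profile of a gene list. The median over the 36 pairs, those of Dkk3 included, was 0.39, with a range of -0.69 to 0.92, and 24 of the 36 were above 0. Two-sided permutation tests within the groups were exact over 14400 arrangements, and after Benjamini-Hochberg adjustment over all 234 relations none had an adjusted p under 0.10, so the relations below are given as a description. The points share depth, since the 3 shallowest libraries also stand apart in other genes, and r is therefore also given over the 7 deepest libraries.

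The closest pair was Myl4 and Myl7, with r = 0.92 and Spearman's rho = 0.88 (exact permutation p = 0.000694 and 0.00167, adjusted p = 0.162 and 0.114, n = 10). Their r was 0.97 without the 2 libraries farthest from the median of Myl4 and 0.87 in the 7 deepest libraries. Sln followed both, with r = 0.82 and rho = 0.79 to Myl4 (exact permutation p = 0.00493 and 0.00958, adjusted p = 0.182 and 0.224) and r = 0.78 and rho = 0.79 to Myl7 (exact permutation p = 0.0160 and 0.0201, adjusted p = 0.188 and 0.248). Without the 2 farthest libraries these were r = 0.84 and 0.76, and in the 7 deepest libraries 0.97 and 0.93.

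The neighbours Sbk2 and Sbk3 formed a second pair, with r = 0.86 and rho = 0.73 (exact permutation p = 0.00451 and 0.0349, adjusted p = 0.182 and 0.292, n = 10), an r of 0.65 without the 2 farthest libraries and of 0.99 in the 7 deepest. Sbk3 was as close to Stard10, with r = 0.86 and rho = 0.83 (exact permutation p = 0.00792 and 0.00701, adjusted p = 0.182 and 0.207), and r = 0.63 without the 2 farthest libraries. Over all 10 libraries Sbk2 had r = 0.05 to Myl4 and 0.19 to Myl7 (exact permutation p = 0.898 and 0.623), over the 7 deepest libraries 0.80 and 0.88, and without the 2 libraries farthest from the median -0.50 and -0.44. For Sbk3 the r to Myl4 and Myl7 was 0.36 and 0.56 over all 10 libraries, 0.78 and 0.89 over the 7 deepest and 0.03 and 0.24 without the 2 farthest. The relation of the Sbk genes to the light chains thus depended on the libraries used.

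**Figure D3:**
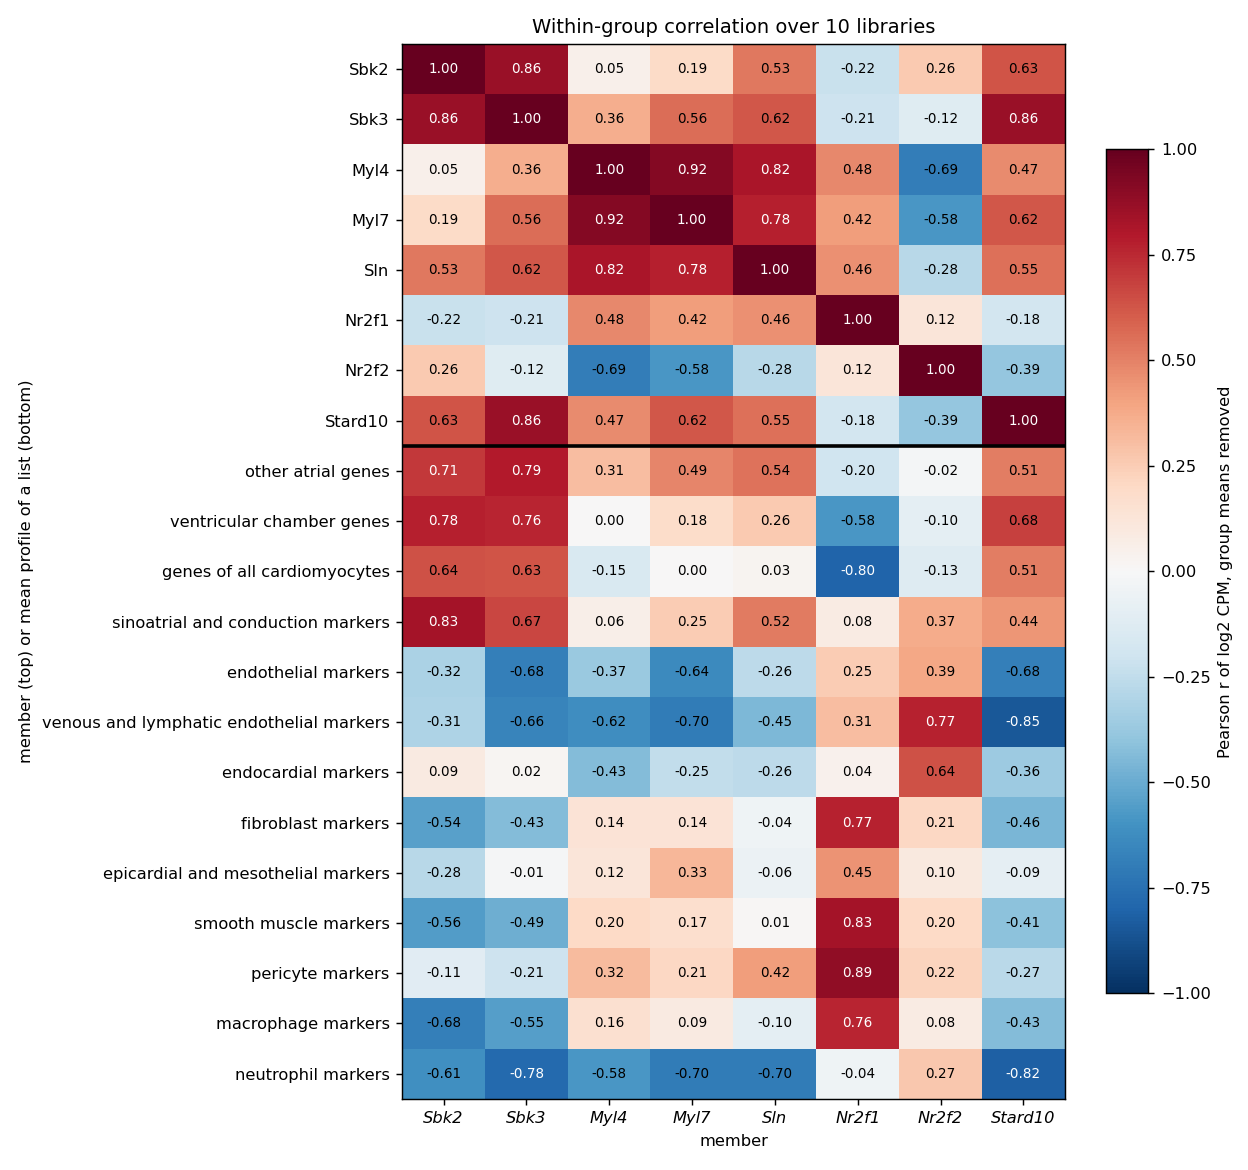
Pearson's r over 10 libraries of log2 CPM with group means removed, for the members other than Bmp10 and Dkk3 (columns) against each other (top rows) and against the mean profiles of marker lists (bottom rows). The Myl4, Myl7 and Sln cells (0.78 to 0.92) and the Sbk2, Sbk3 and Stard10 cells (0.63 to 0.86) form the red blocks, and Nr2f1 and Nr2f2 are red with lists of other cell types.

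The members were also set against the mean profiles of cell type lists. Sbk2 had r = 0.83 and rho = 0.76 with the sinoatrial and conduction markers (exact permutation p = 0.0199 and 0.0502, adjusted p = 0.194 and 0.347). It had r = 0.78 and rho = 0.71 with the ventricular chamber genes (exact permutation p = 0.0225 and 0.0542, adjusted p = 0.211 and 0.351) and r = 0.71 and rho = 0.71 with the other atrial genes (exact permutation p = 0.0353 and 0.0494, adjusted p = 0.25 and 0.347). Myl4 had r = 0.00 and 0.31 with the ventricular and the other atrial list, and over the 7 deepest libraries 0.46 and 0.60 where Sbk2 had 0.83 and 0.75. Nr2f1 ran with several lists of other cells. It had r = 0.83 and rho = 0.94 with smooth muscle markers (exact permutation p = 0.00479 and 0.000764, adjusted p = 0.182 and 0.114) and 0.76 and 0.77 with macrophage markers (exact permutation p = 0.0141 and 0.0147, adjusted p = 0.188 and 0.248). It had r = 0.89 and rho = 0.75 with pericyte markers (exact permutation p = 0.00194 and 0.0253, adjusted p = 0.182 and 0.269) and 0.77 and 0.79 with fibroblast markers (exact permutation p = 0.0153 and 0.0181, adjusted p = 0.188 and 0.248), and r = -0.80 and rho = -0.92 with the genes of all cardiomyocytes (exact permutation p = 0.0117 and 0.00194, adjusted p = 0.182 and 0.114). Without the 2 libraries farthest from the median, the r with pericyte markers was 0.79 and that with fibroblast markers 0.60, and in the 7 deepest libraries they were 0.93 and 0.72. Nr2f2 had r = 0.77 and rho = 0.79 with venous and lymphatic endothelial markers (exact permutation p = 0.0161 and 0.00868, adjusted p = 0.188 and 0.224), and 0.65 both without the 2 farthest libraries and in the 7 deepest. In those 7 its r was higher with fibroblast (0.93), epicardial and mesothelial (0.92) and smooth muscle markers (0.86). Over all 10 libraries these were 0.21, 0.1 and 0.2. With the general endothelial markers its r was 0.39 over all 10 and -0.11 in the 7 deepest. Stard10 had r = -0.85 and rho = -0.79 with the same venous and lymphatic list (exact permutation p = 0.00597 and 0.0170, adjusted p = 0.182 and 0.248), -0.63 without the 2 farthest libraries and -0.84 in the 7 deepest. With neutrophil markers it had r = -0.82 and rho = -0.90 (exact permutation p = 0.0124 and 0.00472, adjusted p = 0.182 and 0.207). Between the groups, the summed pericyte markers ran from 663.5 to 1055 CPM in NLC-MI and from 673.0 to 949.7 CPM in TgGRK5-MI. Of 5 fitted, Abcc9 (-0.67, SE 0.27) and Cspg4 (-0.62, SE 0.28) were lower at an unadjusted p under 0.05 in edgeR, beside 2.08% of all genes fitted. Leaving out 1 library ended the call of Abcc9 for 4 of the 10 libraries, NLC-MI replicate 5 among them, and that of Cspg4 for 7, and without the 3 of lowest depth Cspg4 had -0.56 (unadjusted p = 0.0816). The summed venous and lymphatic markers ran from 226.5 to 387.6 CPM and from 250.2 to 346.7 CPM. Among 7 fitted, Lyve1 was higher at an unadjusted p under 0.05, beside 1.77% of all genes fitted. It was at 7.42 ± 0.625 and 13.2 ± 3.39 CPM (log2 fold change 0.83, SE 0.19, edgeR adjusted p = 0.403). None of the 8 fibroblast markers fitted passed that threshold. The part of these cells in the levels of the members was not tested.

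**Figure D4:**
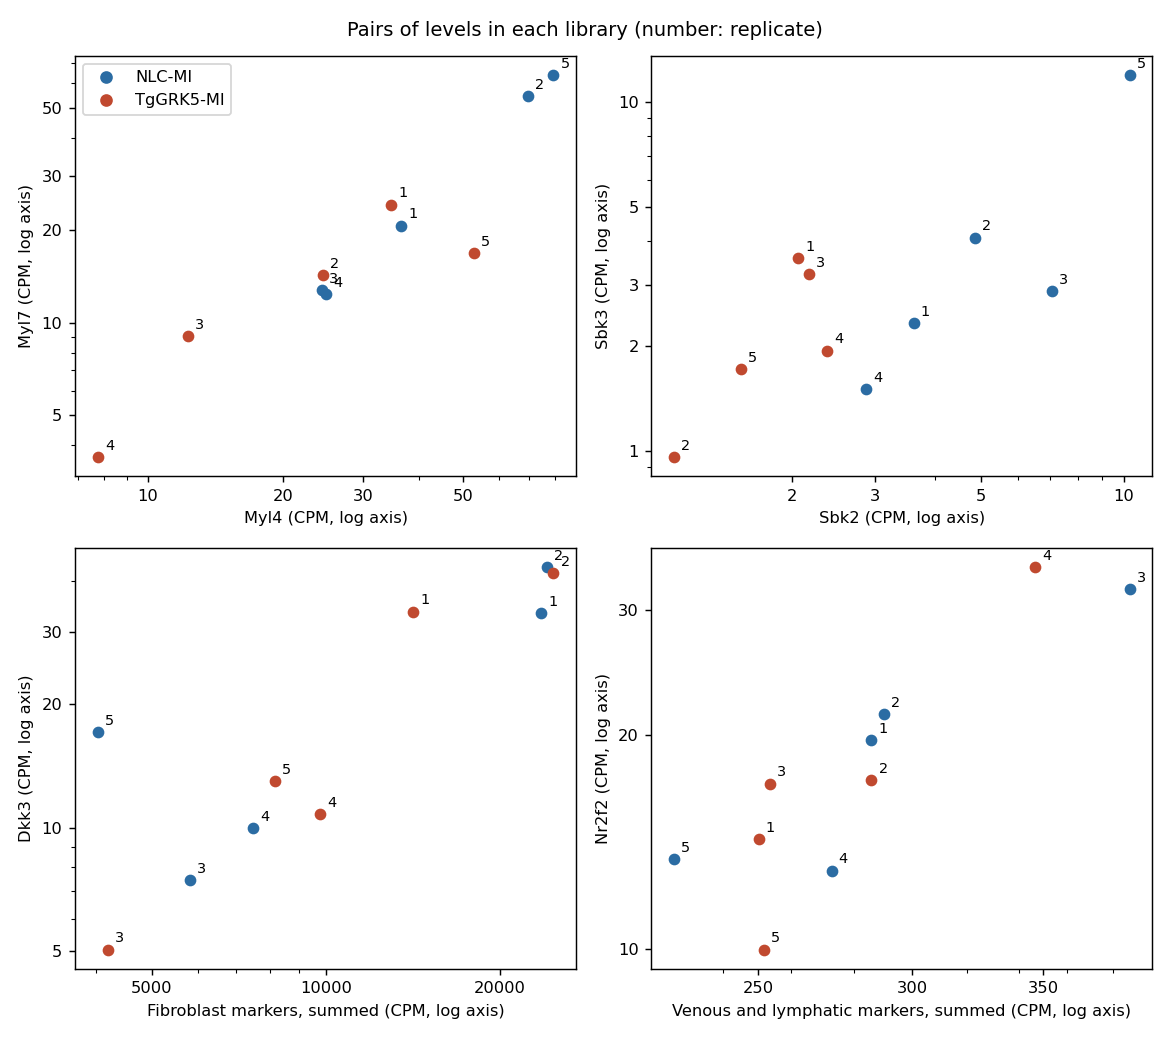
Levels in each library (CPM, log axes, number: replicate) of Myl7 against Myl4, Sbk3 against Sbk2, Dkk3 against the summed fibroblast markers and Nr2f2 against the summed venous and lymphatic markers, with NLC-MI in blue and TgGRK5-MI in red. Replicates 1 and 2 of both groups sit at the upper right for Dkk3, and the TgGRK5-MI points lie to the left of NLC-MI for Sbk2.

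The genes most like the members were those whose centred log2 CPM had the highest r with the mean standardised profile of the 9 fitted members over the 10 libraries. These were Rxfp1 (r = 0.94), Gm37315, Mturn and Zfp119b (0.90 each), A630072M18Rik (0.89), Ttc21b (0.87), Gm6658 and Fgf14 (0.86 each), Nek1 (0.85) and Pdcd4 (0.84). They are the highest values among all genes fitted other than the members, and were not set against chance. Rxfp1, the receptor of relaxin, had means of 0.312 ± 0.229 CPM (NLC-MI) and 1.84 ± 0.491 CPM (TgGRK5-MI), and its log2 fold change was 2.50 (SE 0.45, edgeR adjusted p = 0.133). These levels rest on 1 to 12 counts per library in NLC-MI, partly below the floor of 3 counts, and on 11 to 56 in TgGRK5-MI. Gm6658 and Fgf14 also had few counts, with minima of 3 and 4 in NLC-MI and of 5 and 4 in TgGRK5-MI.

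Other genes of atrial muscle were taken from a list of 14, all of which were fitted. Of these, 3 were lower in TgGRK5-MI at an unadjusted p under 0.05 and none was higher, beside 2.08% and 1.77% of all genes fitted, and none had an adjusted p under 0.10, beside 0.0263% of all genes fitted (4 genes) that were lower. The median log2 fold change of the 14 was -0.26, against -0.70 for the members and 0.001 for all genes. Mybphl, a myosin binding protein of the atria, had a log2 fold change of -1.05 (SE 0.44, edgeR unadjusted p = 0.0338), and means of 4.97 ± 2.58 CPM (NLC-MI) and 2.36 ± 1.39 CPM (TgGRK5-MI). Kcnj3, a subunit of the acetylcholine-gated potassium channel, had -0.87 (SE 0.36, unadjusted p = 0.0356), and the potassium channel gene Kcnk3 had -0.60 (SE 0.25, unadjusted p = 0.0318), each of these 3 with an edgeR adjusted p of 1. The count of 3 fell to 0 without NLC-MI replicate 5, TgGRK5-MI replicate 2 or TgGRK5-MI replicate 4, and to 1 without TgGRK5-MI replicate 5 or without both libraries with Bmp10. Without the 3 libraries of lowest depth the count was 3, but Mybphl did not pass (-0.84, unadjusted p = 0.133) and Tbx5, a T-box factor of the heart, did. The 3 most abundant genes of the list did not pass. Nppa, which encodes atrial natriuretic peptide, was at 2395 ± 1091 and 2330 ± 1113 CPM with a log2 fold change of -0.04 (SE 0.44), Clu had -0.38 (SE 0.28) and Pam -0.10 (SE 0.19), each with an edgeR adjusted p of 1.

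**Figure D5:**
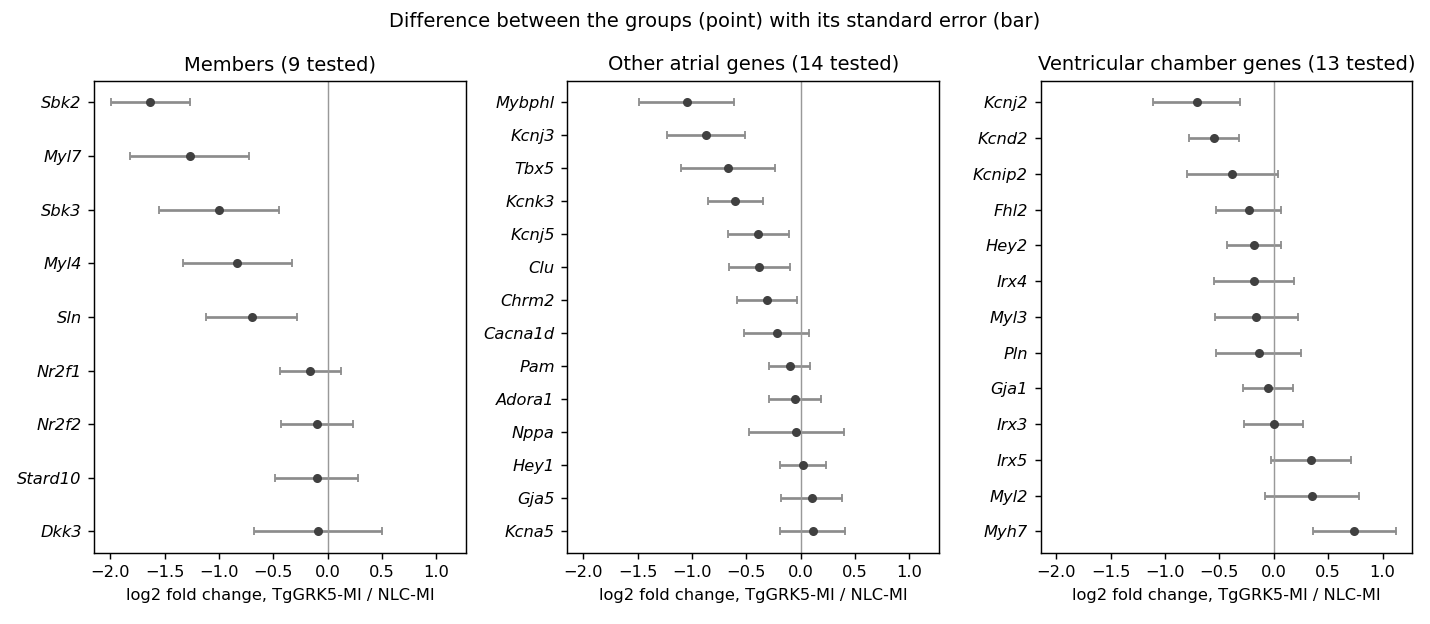
Log2 fold change of TgGRK5-MI against NLC-MI (points) with its standard error (bars) for the 9 members fitted, 14 other atrial genes and 13 ventricular chamber genes. The members run from -1.63 to -0.09, the other atrial genes from -1.05 to 0.11 and the ventricular genes from -0.71 to 0.74.

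Of 14 ventricular chamber genes, 13 were fitted, with a median log2 fold change of -0.16. At an unadjusted p under 0.05 in edgeR, where 2.08% of all genes fitted were lower, 1 of the 13 was lower. This was Kcnd2, a subunit of the transient outward channel, with -0.55 (SE 0.23, unadjusted p = 0.0349, edgeR adjusted p = 1). It no longer passed when any of 5 of the 10 libraries was left out, NLC-MI replicate 5 among them, and without the 3 of lowest depth it was -0.63 (unadjusted p = 0.0575) and the count was 0. Without NLC-MI replicate 5 the 1 ventricular gene that passed was Myl2. Of the 14 genes of all cardiomyocytes 2 were lower, beside the same 2.08% of all genes. These were Ryr2 (-0.93, SE 0.30, edgeR adjusted p = 0.968) and Tbx20, and the median of the 14 was -0.24. Of 7 sinoatrial and conduction markers fitted, 3 were lower, beside 2.08% of all genes fitted. Hcn4 had -1.82 (SE 0.36, unadjusted p = 0.000302, edgeR adjusted p = 0.208). Its groups did not overlap, at 6.24 ± 2.83 and 1.76 ± 0.655 CPM (SD, n = 5 each), beside 0.420% of all genes fitted that lay lower in every TgGRK5-MI library. Cntn2 had -0.69 (SE 0.31, unadjusted p = 0.0453) and Cacna1g had -0.62 (SE 0.19, unadjusted p = 0.00786), with edgeR adjusted p of 1 and 0.928. Without the 3 libraries of lowest depth Hcn4 was -1.89, Cntn2 -0.65 (unadjusted p = 0.136) and Cacna1g -0.50 (unadjusted p = 0.051), and Cntn2 also lost its call when any of 7 of the 10 libraries was left out, NLC-MI replicate 5 among them. Vsnl1 and Isl1, markers of the sinoatrial node, did not pass the filter on low counts, with maxima of 0.523 and 0.323 CPM. Whether the members and the ventricular genes differed in their change was not tested.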

How the data were processed

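Cardiomyocyte RNA of 5 NLC-MI and 5 TgGRK5-MI mice, 1 library each, was prepared with a TruSeq RNA kit. As deposited by the authors, the values are counts per gene in whole numbers for 51789 Ensembl genes, not normalized. The submitters' processing notes name Bowtie2, RSEM 1.2.31, DESeq2 and mm10 with no role, so the counts may be rounded RSEM estimates. The strand setting and annotation version are not given in the sources used here. Libraries were grouped by their labels.

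Symbols, positions and exons were taken from GENCODE M21 (GRCm38, the same build as mm10), which held 51596 of the identifiers, and promoter windows from RefSeq (GRCm38.p6). All 10 members matched 1 gene each.

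In R 4.3.3, edgeR 4.0.16 was used with TMM scaling, filterByExpr by group (15232 genes fitted) and the quasi-likelihood F test over all genes fitted, with Benjamini-Hochberg adjustment. The thresholds were an adjusted p under 0.10 and an unadjusted p under 0.05. Log2 CPM values used a prior count of 2. Standard errors are the size of the log2 fold change divided by the square root of F. With 5 against 5 libraries, p-values set the difference between the groups against the spread between mice within the groups. Levels per kilobase divide CPM by the union of exons. The test was first tried on simulated counts.

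The members and the gene lists, written by hand from general knowledge, were chosen with earlier results of these data known. Some genes of the atrial list are not reported here. The genes named are the members, genes of a list with an unadjusted p under 0.05 or among its 3 highest mean CPM, the 10 genes most like the members, and Grk5. Alternatives were RLE scaling, library size alone, DESeq2 1.42.0, limma-voom (limma 3.58.1) with sample weights, other filters, each library left out, a replicate block, and, for correlations, a prior count of 0.5 and Spearman's rho. Leaving out the 3 libraries of lowest depth or both libraries with Bmp10, and levels relative to cardiomyocyte genes, were added after the data were seen. Genes named outside this rule (Myl2, Myl3, Pln, Sbk1, Nr2f6, Rxra, Gata4, Zfpm2, Vsnl1, Isl1, Tbx5 and Myh7) were chosen as counterparts, relatives or markers after their values were seen.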

Additional observations from a re-analysis of the deposited data

Results flagged for a closer look

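In 2 groups a single library lay far from the other 4 in Bmp10. NLC-MI replicate 5 was at 30.9 CPM, with the other 4 NLC-MI libraries between 0 and 0.0440 CPM, and TgGRK5-MI replicate 1 was at 5.64 CPM, with the other 4 TgGRK5-MI libraries at 0. By Dixon's criterion for 5 samples (0.71), applied to log2 CPM, 72 groups over 36 genes were examined and these 2 stood out. Chance alone gives about 1 in 20 groups where values are normally distributed. That rate does not hold for Bmp10, since its other libraries lay at 0 or 1 count. Each of these 2 libraries would stand out at any level well above them. Leaving out both libraries moved the mean log2 fold change of the fitted members from -0.65 to -0.50, and leaving out NLC-MI replicate 5 alone moved it to -0.40.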

How the results depend on the processing

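The mean log2 fold change of the members stayed below 0 under all 20 alternatives, from -0.83 to -0.39 (main value -0.65), with -0.40 without NLC-MI replicate 5. Members near 0 took both signs over the alternatives, Dkk3 from -0.51 to 0.29, Nr2f1 from -0.37 to 0.10, Nr2f2 from -0.43 to 0.17 and Stard10 from -0.37 to 0.35, and the other 5 stayed below 0. Of the genes with an adjusted p under 0.10 there were 12, and 69 with DESeq2, 50 with limma-voom, 6 without the 3 libraries of lowest depth, 4 without both libraries with Bmp10 and 3 to 10 with single libraries left out. The adjusted p of Hcn4, 0.208 by edgeR's test, was 0.000899 by the Wald test of DESeq2 and 0.0586 by limma-voom. That of Lyve1, 0.403 by edgeR's test, was 0.0195 by the Wald test of DESeq2 and 0.109 by limma-voom. At an unadjusted p under 0.05 there were 586 genes, 1810 with limma-voom, 1163 with no filter on low counts and 457 to 1069 with single libraries left out. RLE scaling moved the share of higher among these from 45.9% to 38.3%, and limma-voom to 62.9%. The 3 other atrial genes became 1 without both libraries with Bmp10 and 0 to 3 with single libraries left out. With limma-voom the count was again 3, but of the genes named above only Kcnk3 stayed. Kcnj3 and Mybphl did not pass, and Clu did. The 1 ventricular gene became 2 others with limma-voom (Myh7 and Myl2, not Kcnd2), 0 without the 3 libraries of lowest depth and 0 to 2 with single libraries left out. The median correlation of the members, 0.39, was 0.57 without the 3 libraries of lowest depth and 0.25 to 0.47 with single libraries left out. Depth limits the members with few counts, such as Sbk3 with as few as 18 in a library. Bmp10 had 0 counts in 7 libraries, and NLC-MI replicate 2, the deepest with 23381527 counts, was among them. The causes of the shifts between alternatives were not tested. Some alternatives also differed in the number of libraries or of genes fitted.

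Between NLC-MI and TgGRK5-MI, same-numbered libraries deviated together in only some pairs (correlations of 0.0717, 0.662, 0.381, -0.341 and 0.0848 over genes). Their mean was 0.172, against a mean of -0.0274 for libraries of different numbers, which ran from -0.606 to 0.731. The labels do not say what the numbers stand for, and these values do not settle whether they pair the mice. With a replicate block, 5 genes were higher and 3 lower at an adjusted p under 0.10 (8 against 12), 604 passed an unadjusted p under 0.05, and the members' mean was -0.62. The same 3 other atrial genes passed and the 1 ventricular gene was Myh7. By edgeR's test Kcnd2 (unadjusted p = 0.0595) and Acvr2b (unadjusted p = 0.0705) did not pass. The SE of Myl4 fell to 0.24 (log2 fold change -0.96), that of Myl7 to 0.35 (-1.19) and that of Dkk3 from 0.59 to 0.17 (-0.17). Those of Sbk2 (0.37) and Sbk3 (0.55) did not fall.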
